A study of Oryctolagus cuniculus with 15 samples.

Results

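The glycosaminoglycan enzymes were examined here as the set of genes whose products build, sulfate or desulfate the sugar chains of proteoglycans, together with the hyaluronan synthases. Members were taken by symbol: every gene whose name begins with CHST, B3GNT, B4GALT, B3GAT, HS2ST, HS3ST, HS6ST, NDST, XYLT, CHSY, CHPF, CSGALNACT or SULF followed by a number or by nothing, plus EXT1, EXT2, EXTL1, EXTL2, EXTL3, HAS1, HAS2, HAS3, DSE and DSEL. The rule found 63 of the 23428 genes in the table, of which 15408 have a symbol of their own. By role, 4 members make the linkage to the core protein, 7 extend and sulfate keratan sulfate, 8 build chondroitin and dermatan sulfate chains and 7 sulfate them, 5 build heparan sulfate chains, 13 sulfate heparan sulfate and 2 remove its sulfate groups outside the cell. A further 3 are hyaluronan synthases, and the remaining 14 belong to the same enzyme families but act mainly on the HNK-1 epitope, on N-glycans or on glycolipids.

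Sulfated glycosaminoglycans are linear sugar chains that are built in the Golgi on the core proteins of proteoglycans, and each step uses its own enzyme: a linkage region is made, the chain is polymerised from activated sugars, and sulfotransferases then place sulfate groups on it. In the corneal stroma, keratocytes secrete lumican, keratocan and mimecan with keratan sulfate chains, and decorin with a chondroitin or dermatan sulfate chain, and these chains are known for their part in the spacing of collagen fibrils and in tissue hydration. Heparan sulfate sits mainly on cell-surface and basement membrane proteoglycans, where its sulfation pattern sets which growth factors bind. Hyaluronan is made without a core protein, at the plasma membrane.

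The libraries were made from first-passage corneal keratocytes of New Zealand white rabbits, kept in serum-free medium for 6 days in 5 culture conditions with 3 libraries each. In 2DC the cells grew on a collagen-coated dish, which was incubated with digestion medium holding collagenase and hyaluronidase before lysis. The 2DC_L dishes were coated in the same way and lysed directly. In 2DF the cells lay on top of a fibrillar collagen matrix, whereas in 3DF (100000 cells per matrix) and 3DF_50 (50000 cells per matrix) they were embedded in it, and all matrices were digested before lysis. Every library is the RNA of several pooled dishes or matrices of 1 experiment, the 3 libraries of a condition being described as separate experiments. The individual animals behind each experiment are not given in the sources used here, and the cells are a primary culture and not the intact stroma.

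Levels are given as FPKM, the authors' count per gene scaled by gene length and by a size per library, which was 0.921 to 1.24 times the counted total (0.924 to 0.995 in 2DC, 1.04 to 1.08 in 3DF and 1.19 to 1.24 in 3DF_50), so that genes can be compared with each other, and positions are those of the deposited table (build oryCun2). Between 14626982 and 31804255 reads were counted per library, and members took 0.274% to 0.383% of them. Keratocyte markers (6 of 8 listed genes were in the table: KERA, LUM, DCN, ALDH1A1, TKT and CD34) summed to 16889.8 to 31310.5 FPKM, with the highest sum in 3DF replicate 1, against 22931.4 and 23678.5 in the other 3DF libraries. Corneal epithelial markers (11 of 12) summed to 8.62 to 14.2 FPKM in 3DF, 0.449 to 1.43 in 2DC, 1.04 to 6.97 in 2DF and 0.157 to 7.02 in 3DF_50. Cycling markers (4 of 4) summed to 1.86 to 27.4 FPKM in 2DC and 0.245 to 0.656 in 3DF, corneal endothelial markers (4 of 4) to 376 to 474 and 197 to 261, vascular endothelial markers (5 of 5, with PECAM1 under 0.1 FPKM in every library) to 32.9 to 62.5 and 117 to 119, and myofibroblast markers (3 of 4) to 4.94 to 7.48 and 0.715 to 1.07. Of the vascular list, KDR alone stood at 30.6 to 60.7 FPKM in 2DC and 112 to 115 in 3DF. CDH5 stood at 1.70 to 2.79 and 2.45 to 4.81, and VWF and TEK at or under 0.167 in both. Of the corneal endothelial list, COL8A2 stood at 227 to 354 and 92.0 to 157, ALCAM at 44.9 to 66.4 and 25.7 to 33.7. PRDX6 stood at 72.8 to 84.5 and 68.2 to 77.8, and SLC4A11 at or under 0.967. Immune markers (5 of 6) stayed at or under 7.86 FPKM and glial markers (4 of 4) at or under 3.94 in all 15 libraries. The part of these marker levels in the results below was not tested. In bulk RNA, fewer cells of a type and less RNA per cell cannot be told apart.

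Most of the chain-building machinery was expressed. Averaged over the 15 libraries, 41 of the 63 members lay at or above 1 FPKM, 31 of them at or above 10 FPKM, and 22 lay below 1 FPKM. The most abundant members were CHSY3 (98.7 FPKM), B3GNT7 (94.9), B4GALT1 (85.9) and CSGALNACT2 (76.3), which act in chondroitin sulfate and keratan sulfate synthesis. No library held more than 3 counts of B3GAT1, CHST8, CHST9, HS3ST2, HS6ST3 or NDST4. In each of the 5 main comparisons 48 or 49 members passed edgeR's filter on low counts, and 13 passed in none of the 10 possible pairs. In addition to the 6 named, these were B3GNT4, B3GNT6, B4GALT6, CHST13, CHST4, HAS1 and HS3ST3A1.

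Over all 5 conditions together, 32 of 49 members (65.3%) passed edgeR's F test for any difference at an adjusted p of at most 0.05, against 41.8% of all genes tested. EXT2 (1.02e-07), SULF1 (3.08e-07) and CHSY1 (1.47e-06) had the smallest adjusted p-values, all in that F test. Of the 32, 13 had their highest mean on a coated dish (2 in 2DC and 11 in 2DC_L), while 2DF held it for 5, 3DF for 9 and 3DF_50 for 5. The lowest mean fell on a coated dish for 14, in 2DF for 3, in 3DF for 2 and in 3DF_50 for 13. Members of one role did not all share a pattern, as the map of all tested members shows.

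**Figure D1:**
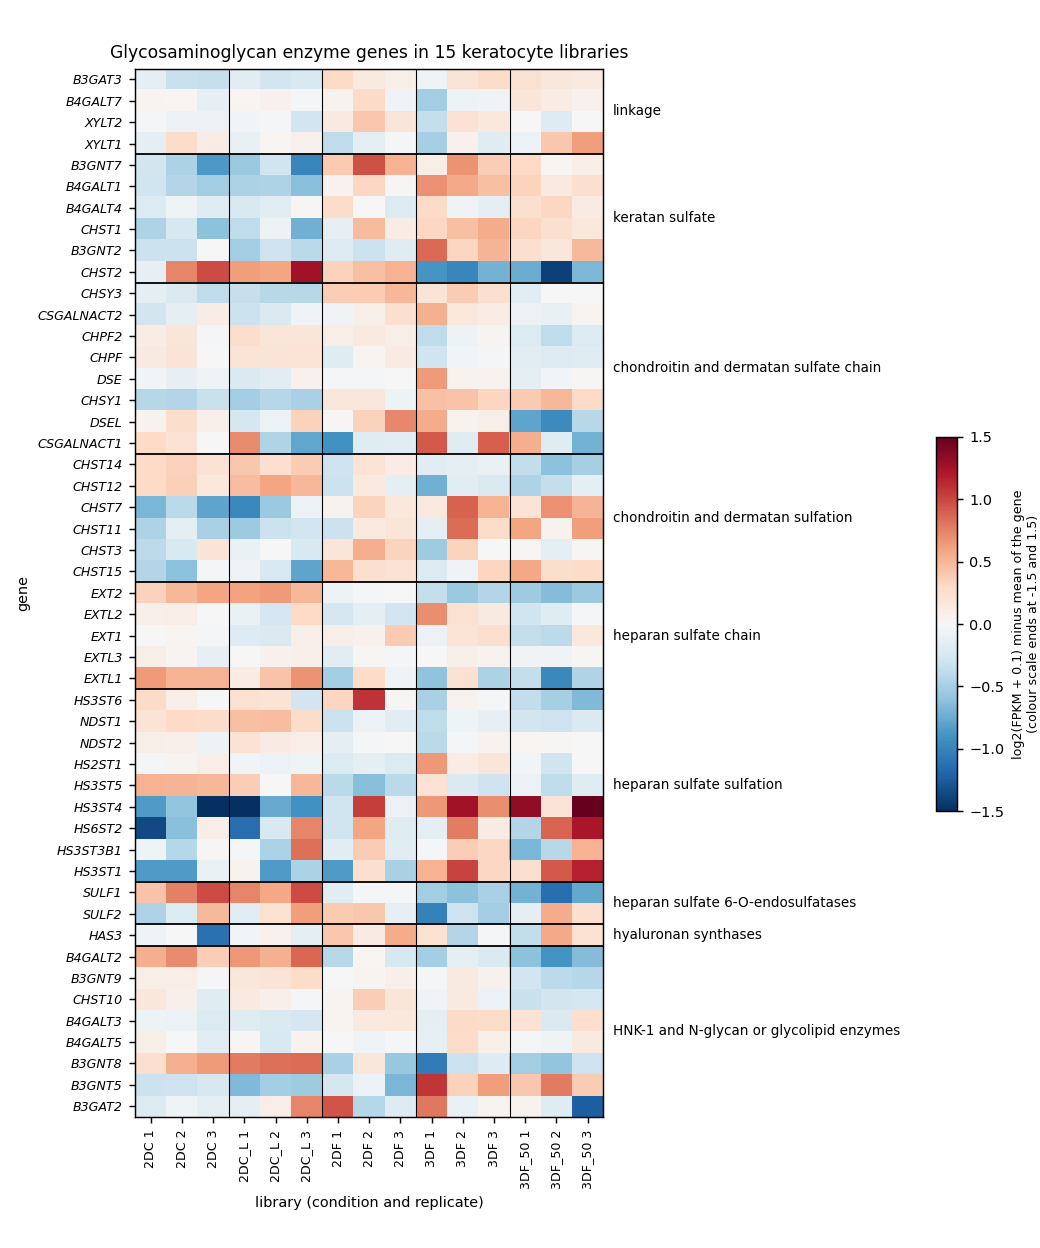
Level of the 49 members that entered the 5-condition test in each of the 15 libraries, as log2(FPKM + 0.1) minus the gene's own mean (red above, blue below), with genes in rows grouped by role and libraries in columns. B3GNT7, B4GALT1, CHST1 and B3GNT2 are above their mean in all 3DF libraries, whereas CHST2, EXT2 and SULF1 are below theirs.

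A gene was called differentially expressed (DEG) when its adjusted p from edgeR was 0.05 or less and its log2 fold change was 1 or more in size. Between 3DF and 2DC, 5 of 48 members were DEGs, 3 higher and 2 lower in 3DF, against 7.56% of all genes tested (3.24% higher and 4.32% lower). Without the fold limit 18 of 48 (37.5%) passed, 9 higher and 9 lower, against 15.4% of all genes (6.98% and 8.38%). The 3DF and 2DC libraries did not overlap in FPKM for 13 members that were higher and 11 that were lower, against 19.1% and 18.7% of all genes. The median log2 fold change of the members was 0.11, beside 0.01 over all genes. Scaled by library size alone, the median of all genes moved to 0.19, and 11 members were then called higher and 4 lower, with no change of direction among the 18. Of all 13493 genes, 1969 were then past the adjusted p higher and 790 lower.

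Between 2DF and 2DC, 1 of 48 members was a DEG (higher, as were 2.04% of all genes, with 2.93% lower and 4.96% in all), and 15 passed without the fold limit, 9 higher and 6 lower (14.4% of all genes, 6.73% higher and 7.63% lower). Here 14 members were higher and 12 lower with no overlap, against 17.3% and 18.0% of all genes. The median log2 fold change of the members was 0.15, beside 0.00451 over all genes, and with library size alone the latter was 0.11 and the split 10 higher and 5 lower. Of all 13258 genes, 1261 were then past the adjusted p higher and 688 lower. Between 3DF and 2DF, 2 of 48 were DEGs, 1 in each direction (3.78% of all genes, 2.09% higher and 1.69% lower), and 5 passed without the fold limit, 2 higher and 3 lower (6.05%, as 3.40% and 2.65%). No overlap was seen for 8 higher and 5 lower (15% and 14.3% of all genes). Scaled by library size alone, 3 members were called higher and 1 lower, beside 629 and 337 of all 13195 genes. The members' median was -0.03, beside 0.01 over all genes. The comparisons share the 2DC, 2DF and 3DF libraries and are not independent of each other. The library names begin with a code from E2 to E10, whose meaning the labels do not give. The code E6 is shared by 2DC replicate 3 and 3DF replicate 1, and in that pair all 18 members called between 3DF and 2DC differed in the direction of the test, of which both libraries are a part. The 2DF libraries share no such code with 2DC, 2DC_L or 3DF, so that for 2DF vs. 2DC and 3DF vs. 2DF the code and the condition cannot be told apart. With the code as a block over all 5 conditions, every member call past the adjusted p in 2DF vs. 2DC and in 3DF vs. 2DF was lost. Over all genes, those past the adjusted p went from 1903 to 16 in 2DF vs. 2DC and from 798 to 4 in 3DF vs. 2DF. In 3DF vs. 2DC the calls of CHST14, NDST1 and HS3ST5 were lost.

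**Figure D2:**
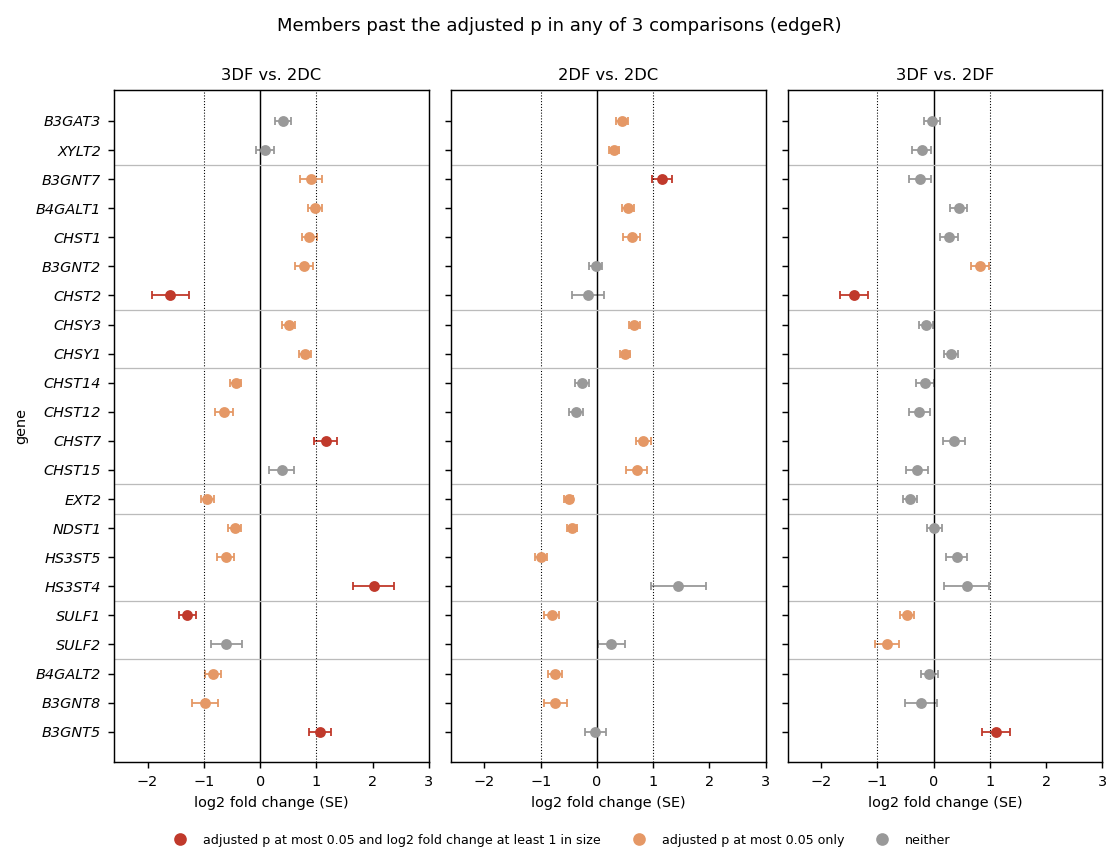
Log2 fold change with SE (edgeR, n = 3 libraries per condition) of the 22 members that passed the adjusted p in 3DF vs. 2DC, 2DF vs. 2DC or 3DF vs. 2DF, with 1 panel per comparison and dotted lines at -1 and 1. HS3ST4 has the largest increase in 3DF vs. 2DC (2.02) and CHST2 the largest decrease (-1.60).

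The enzymes of the linkage region, which is shared by chondroitin, dermatan and heparan sulfate, differed little. Of the 4 tested, 2 were higher past the adjusted p in 2DF vs. 2DC (6.73% of all genes). In 3DF vs. 2DC and 3DF vs. 2DF 0 were called (15.4% and 6.05% of all genes). B3GAT3, the glucuronosyltransferase that completes the linkage, was measured at 20.5, 17.8 and 17.7 FPKM in 2DC, 27.6, 24.9 and 23.8 in 2DF and 21.7, 25.7 and 27.3 in 3DF. All 2DF libraries lay above all 2DC libraries, and the difference passed the test (log2 fold change 0.45, SE 0.10, edgeR adjusted p = 0.0229), with the call lost without 2DC replicate 2, 2DC replicate 3 or 2DF replicate 1 (adjusted p from 0.0237 to 0.103 over these fits). In 3DF_50 vs. 2DC B3GAT3 was higher past the adjusted p in 6 of 6 fits without 1 library, but not with the library-name code as a block. XYLT2, a xylosyltransferase that starts the chain on a serine of the core protein, had a log2 fold change of 0.31 in 2DF vs. 2DC, at the limit of the test (edgeR adjusted p = 0.05) and past it in 0 of 6 fits that left out 1 library. B4GALT7, the galactosyltransferase of the linkage, ranged from 14.7 to 25.7 FPKM over the 15 libraries and was not called in any of the 3 comparisons. Its lowest value was in 3DF replicate 1. The other xylosyltransferase, XYLT1, stayed between 0.0648 and 0.261 FPKM.

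Of 6 keratan sulfate enzymes tested in 3DF vs. 2DC, 4 rose and 1 fell (6.98% and 8.38% of all genes), and the median of their log2 fold changes was 0.83. In 2DF vs. 2DC 3 rose and none of the 6 fell (6.73% and 7.63% of all genes), and in 3DF vs. 2DF 1 rose and 1 fell (3.40% and 2.65%). The remaining member, CHST4, did not pass the filter.

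B3GNT7 (chromosome 7, 172901654 to 172905513, plus strand), the N-acetylglucosaminyltransferase that extends keratan sulfate, stood at 73.3, 63.8 and 48.9 FPKM in 2DC, 60.4, 72.0 and 44.8 in 2DC_L, 117, 172 and 127 in 2DF, 94.4, 142 and 115 in 3DF, with 109, 90.7 and 95.2 in 3DF_50. Every library from a fibrillar matrix was above every library from a coated dish. It was the only member that was a DEG in 2DF vs. 2DC (log2 fold change 1.16, SE 0.18, edgeR adjusted p = 0.00395), and it also rose in 3DF vs. 2DC (log2 fold change 0.91, SE 0.20, edgeR adjusted p = 0.0163). Without 2DF replicate 2, its highest library, the 2DF vs. 2DC log2 fold change was 0.98, just under the fold limit. Without 2DC replicate 2 the adjusted p in 3DF vs. 2DC was 0.0658.

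B4GALT1 (chromosome 1, 20276459 to 20330136, plus strand), a galactosyltransferase of broad use in glycan synthesis, was measured at 67.1, 60.7 and 57.4 FPKM in 2DC, 85.5, 102 and 83.3 in 2DF and 132, 122 and 113 in 3DF, ranges that followed each other upward without overlap. The increase passed the test in 3DF vs. 2DC (log2 fold change 0.98, SE 0.12, edgeR adjusted p = 0.00127) and in 2DF vs. 2DC (log2 fold change 0.55, SE 0.11, edgeR adjusted p = 0.011), the latter not without 2DC replicate 2 (adjusted p = 0.0678), while 3DF vs. 2DF was not called (log2 fold change 0.44, SE 0.14, edgeR adjusted p = 0.11). The gene overlaps GNG10 on the other strand, and whether counting used strand is not given in the sources used here. CHST1 (chromosome 1, 185055210 to 185068278, minus strand), the sulfotransferase for the galactose of keratan sulfate, was at 17.0, 19.9 and 15.3 FPKM in 2DC, 21.6, 32.7 and 25.4 in 2DF and 29.3, 32.3 and 34.6 in 3DF. The 3DF and 2DC values were well separated (log2 fold change 0.87, SE 0.13, edgeR adjusted p = 0.00371, past the test in 6 of 6 fits that left out 1 library). In 2DF vs. 2DC CHST1 also passed (log2 fold change 0.62, SE 0.16, edgeR adjusted p = 0.0309), with the call kept in 1 of 6 fits that left out 1 library, the one without 2DF replicate 1 (adjusted p from 0.0259 to 0.0833 over these fits).

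None of the 63 members is CHST5 or CHST6. LOC100351319 (chromosome 5, 30156901 to 30175263, minus strand) is paired with CHST6, the corneal N-acetylglucosamine sulfotransferase, in RefSeq's gene list. It is not a member by the rule and was looked up after its values were seen. Its levels were among the highest of any enzyme here, at 101, 85.4 and 74.5 FPKM in 2DC, 118, 139 and 116 in 2DF, 131, 166 and 144 in 3DF, with 122, 93.7 and 114 in 3DF_50. The 2DF and 3DF libraries were above all 2DC libraries, whereas 3DF_50 overlapped 2DC. It rose in 3DF vs. 2DC (log2 fold change 0.75, SE 0.15, edgeR adjusted p = 0.0122), although not without 2DC replicate 2 (adjusted p = 0.0656), and in 2DF vs. 2DC (log2 fold change 0.52, SE 0.13, edgeR adjusted p = 0.0264), with the call kept in 2 of 6 fits that left out 1 library, those without 2DC replicate 1 or 2DF replicate 3 (adjusted p from 0.0135 to 0.11 over these fits).

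B3GNT2 and CHST2 separated the embedded cells from both flat conditions. B3GNT2 (chromosome 2, 124193494 to 124224029, minus strand), which makes poly-N-acetyllactosamine, the unsulfated backbone of keratan sulfate, was at 10.1, 10.2 and 12.7 FPKM in 2DC, 11.0, 10.1 and 11.2 in 2DF, 23.1, 16.0 and 18.1 in 3DF, with 14.99, 14.4 and 17.8 in 3DF_50. All 6 embedded libraries were above all 2DC and 2DF libraries, and 2DC and 2DF overlapped. It rose in 3DF vs. 2DC (log2 fold change 0.78, SE 0.16, edgeR adjusted p = 0.0135) and in 3DF vs. 2DF (log2 fold change 0.83, SE 0.16, edgeR adjusted p = 0.0134). The first call was lost without 2DC replicate 1 or 2 (adjusted p = 0.0533 and 0.0749), and the second without any 1 of the 2DF libraries (adjusted p up to 0.0675).

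CHST2 (chromosome 14, 36554448 to 36557369, plus strand), an N-acetylglucosamine sulfotransferase best known from selectin ligands, went the other way. Its counts were 89, 126 and 151 in 2DC, 75, 82 and 85 in 2DF and 42, 35 and 39 in 3DF. In FPKM these were 1.07, 2.03 and 2.42 for 2DC, 1.52, 1.65 and 1.73 for 2DF and 0.594, 0.549 and 0.685 for 3DF. The 3DF_50 libraries were also low, at 0.663, 0.383 and 0.704 FPKM, and no embedded library reached any flat one. The fall passed the test in 3DF vs. 2DF (log2 fold change -1.42, SE 0.25, edgeR adjusted p = 0.0092, kept in 6 of 6 fits without 1 library) and in 3DF vs. 2DC (log2 fold change -1.60, SE 0.33, edgeR adjusted p = 0.0133), where it was lost without 2DC replicate 2 (adjusted p = 0.0573). The 3DF vs. 2DF call of CHST2 was lost with the library-name code as a block. B4GALT4, the galactosyltransferase that prefers sulfated N-acetylglucosamine, ranged from 23.2 to 34.0 FPKM and was not called in the 3 comparisons. It passed the adjusted p in 3DF_50 vs. 2DC (log2 fold change 0.38, SE 0.08, edgeR adjusted p = 0.00647), but not with the library-name code as a block.

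**Figure D3:**
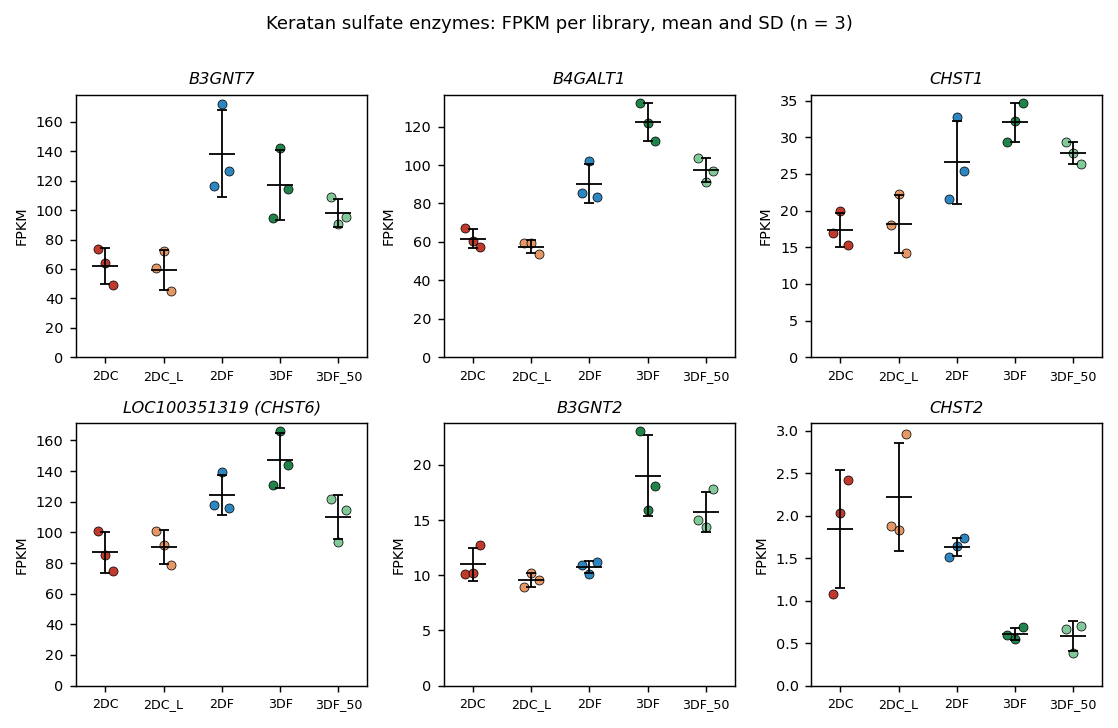
FPKM of 6 keratan sulfate enzyme genes in the 5 conditions, with points for libraries and bars for mean and SD (n = 3), every vertical axis starting at 0. CHST2 falls from a mean of 1.84 FPKM in 2DC to 0.609 in 3DF, while the other 5 genes have higher means in 3DF than in 2DC.

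Among the 8 enzymes that build chondroitin and dermatan sulfate chains, the synthases CHSY1 and CHSY3 rose on and in fibrillar collagen, and the other 6 were not called in any of the 3 comparisons. The median log2 fold change of the group was 0.35 in 3DF vs. 2DC. CHSY1 (chromosome 17, 84756059 to 84802890, plus strand) was at 19.4, 19.3 and 20.8 FPKM in 2DC, 29.5, 29.6 and 24.8 in 2DF, 35.6, 35.4 and 32.7 in 3DF, with 34.4, 37.2 and 32.0 in 3DF_50. The coated dishes were within 18.4 to 20.8 FPKM, below all fibrillar libraries. CHSY1 rose in 3DF vs. 2DC (log2 fold change 0.79, SE 0.10, edgeR adjusted p = 0.00175, past the test in 6 of 6 fits without 1 library) and in 2DF vs. 2DC (log2 fold change 0.50, SE 0.09, edgeR adjusted p = 0.00889), the latter lost without 2DC replicate 2 (adjusted p = 0.0559). CHSY3 (chromosome 3, 13350442 to 13621112, plus strand), the most abundant member, was at 88.0, 82.7 and 74.0 FPKM in 2DC, 125, 125 and 136 in 2DF and 110.1, 126 and 114 in 3DF, with both fibrillar conditions above 2DC. The rise in 2DF vs. 2DC held in 6 of 6 fits without 1 library (log2 fold change 0.66, SE 0.10, edgeR adjusted p = 0.00305). That in 3DF vs. 2DC was smaller (log2 fold change 0.51, SE 0.12, edgeR adjusted p = 0.0244), with the call kept in 1 of 6 fits that left out 1 library, the one without 3DF replicate 1 (adjusted p from 0.00922 to 0.115 over these fits).

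CSGALNACT2, which places the first N-acetylgalactosamine of a chain, was at 62.2, 68.5 and 81.6 FPKM in 2DC, 72.5, 80.4 and 88.9 in 2DF and 109, 84.3 and 81.5 in 3DF, with its highest library in 3DF replicate 1. Its relative CSGALNACT1 never exceeded 0.804 FPKM. CHPF and CHPF2, the partners of the synthases, ranged from 33.0 to 46.9 and from 39.2 to 61.6 FPKM over the 15 libraries. Both passed the adjusted p, lower, in 3DF_50 vs. 2DC, but not with library size only, with the library-name code as a block or without 2DC replicate 2. DSE and DSEL are the epimerases that turn glucuronic into iduronic acid and so make dermatan sulfate. DSE was at 26.4, 24.8 and 26.0 FPKM in 2DC, 26.4, 26.7 and 27.2 in 2DF and 42.1, 28.1 and 28.1 in 3DF, with 3DF replicate 1 well above all others, and was not called. DSEL (chromosome 9, 107629336 to 107635460, minus strand) separated the sparser 3D cultures from the rest, at 4.79, 4.27 and 6.23 FPKM in 3DF_50 against 12.4, 8.67 and 8.94 in 3DF, 8.46, 10.7 and 13.8 in 2DF and 8.70, 10.1 and 8.86 in 2DC. All 3DF_50 libraries were below all others. DSEL was a DEG in 3DF_50 vs. 2DF (log2 fold change -1.09, SE 0.18, edgeR adjusted p = 0.00255) and fell in 3DF_50 vs. 2DC (log2 fold change -0.85, SE 0.14, edgeR adjusted p = 0.00141), whereas 3DF vs. 3DF_50 did not pass (log2 fold change 0.95, SE 0.19, edgeR adjusted p = 0.0652). Without 2DF replicate 3 or 3DF_50 replicate 2 the log2 fold change in 3DF_50 vs. 2DF was -0.90 and -0.98, under the fold limit.

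Of 6 tested sulfotransferases of chondroitin and dermatan sulfate, 1 rose and 2 fell in 3DF vs. 2DC (6.98% and 8.38% of all genes), and 2 rose and none fell in 2DF vs. 2DC (6.73% and 7.63%). CHST7 (chromosome X, 31695573 to 31719302, plus strand), a chondroitin 6-O-sulfotransferase, was at 6.08, 7.42 and 5.67 FPKM in 2DC, 5.01, 6.68 and 9.27 in 2DC_L, 10.3, 12.5 and 11.1 in 2DF, 11.0, 18.2 and 14.2 in 3DF, with 11.4, 15.9 and 14.1 in 3DF_50. All fibrillar libraries were above all coated ones. It was a DEG in 3DF vs. 2DC (log2 fold change 1.17, SE 0.21, edgeR adjusted p = 0.00689), with a log2 fold change of 0.96 without 3DF replicate 2, and it passed the adjusted p in 2DF vs. 2DC (log2 fold change 0.82, SE 0.13, edgeR adjusted p = 0.0044). CHST3, the other chondroitin 6-O-sulfotransferase, ranged from 1.39 to 3.04 FPKM and was not called in the 3 comparisons.

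Of the 4-O-sulfotransferases, CHST14 and CHST12 fell in 3DF vs. 2DC. CHST14, which acts on dermatan sulfate, was at 27.4, 28.4 and 26.0 FPKM in 2DC and 19.8, 20.1 and 20.8 in 3DF. CHST12, which acts on chondroitin, was at 17.5, 18.3 and 15.9 in 2DC and 8.59, 12.6 and 12.2 in 3DF. In neither gene did the conditions overlap. The difference passed the test in CHST14 (log2 fold change -0.44, SE 0.10, edgeR adjusted p = 0.023) and CHST12 (log2 fold change -0.64, SE 0.16, edgeR adjusted p = 0.0316). CHST14 kept the call in 1 and CHST12 in 2 of 6 fits without 1 library, CHST14 without 3DF replicate 1 and CHST12 without 3DF replicate 1 or 2. In 3DF_50 vs. 2DC both were lower past the adjusted p in 6 of 6 such fits, CHST12 not with library size only. CHST11, the remaining expressed 4-O-sulfotransferase, had 2.25, 2.86 and 2.22 FPKM in 2DC and 2.84, 5.68 and 3.83 in 3DF. Its lowest 3DF library lay within the 2DC range, and it was not called (log2 fold change 0.75, SE 0.27, edgeR adjusted p = 0.107). CHST11 did pass the adjusted p, higher, in 3DF_50 vs. 2DC (log2 fold change 0.83, SE 0.21, edgeR adjusted p = 0.0127) and 3DF_50 vs. 2DC_L (log2 fold change 0.86, SE 0.20, edgeR adjusted p = 0.00598). The first of these calls was kept in 4 of 6 fits without 1 library and lost with the library-name code as a block. CHST15, which adds another sulfate group to an already sulfated residue, had 1.34, 1.17 and 1.83 FPKM in 2DC and 2.65, 2.21 and 2.17 in 2DF. It rose in 2DF vs. 2DC (log2 fold change 0.70, SE 0.19, edgeR adjusted p = 0.0389), with the call kept in 1 of 6 fits that left out 1 library, the one without 2DC replicate 3 (adjusted p from 0.0131 to 0.148 over these fits). In 3DF_50 vs. 2DC CHST15 was higher past the adjusted p in 6 of 6 such fits.

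**Figure D4:**
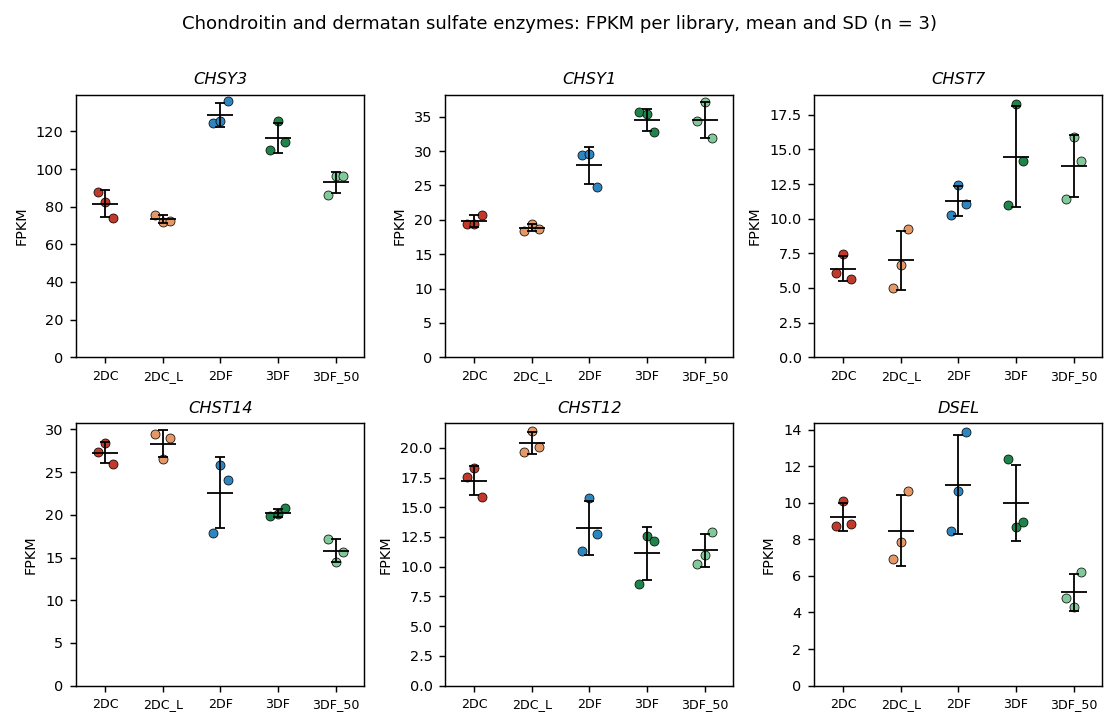
FPKM of 6 chondroitin and dermatan sulfate enzyme genes in the 5 conditions, with points for libraries and bars for mean and SD (n = 3), every vertical axis starting at 0. CHSY3, CHSY1 and CHST7 have higher means in 2DF and 3DF than in 2DC, CHST14 and CHST12 lower ones, and DSEL is lowest in 3DF_50 at a mean of 5.10 FPKM.

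Heparan sulfate is polymerised by the EXT1 and EXT2 proteins, which work as a complex. Of the 5 tested members of this group only EXT2 was called in the 3 comparisons. It was lower in 3DF vs. 2DC and in 2DF vs. 2DC, where 8.38% and 7.63% of all genes were lower past the adjusted p. EXT2 (chromosome 1, 183758702 to 183919719, plus strand) was at 37.9, 42.3 and 44.9 FPKM in 2DC, 45.2, 46.5 and 42.1 in 2DC_L, 28.3, 29.4 and 30.0 in 2DF, 23.2, 20.3 and 21.9 in 3DF, with 20.6, 18.9 and 20.3 in 3DF_50. The ranges of coated, 2DF and embedded libraries followed each other downward without overlap. EXT2 fell in 3DF vs. 2DC (log2 fold change -0.94, SE 0.12, edgeR adjusted p = 0.00124) and in 2DF vs. 2DC (log2 fold change -0.50, SE 0.09, edgeR adjusted p = 0.00608), each in 6 of 6 fits without 1 library, and 3DF vs. 2DF did not pass (log2 fold change -0.42, SE 0.12, edgeR adjusted p = 0.0731). It was a DEG in 3DF_50 vs. 2DC (log2 fold change -1.06, SE 0.09, edgeR adjusted p = 3.62e-05). CHST1, which rose in the same comparisons, lies on the same chromosome as EXT2. EXT1 ranged from 8.45 to 14.6 FPKM over all libraries and was not called in any of the 3 comparisons (for 3DF vs. 2DC, log2 fold change 0.12, SE 0.13, edgeR adjusted p = 0.564). EXTL3, which adds the sugar that commits a chain to heparan sulfate, ranged from 9.07 to 10.9 FPKM. EXTL1 was expressed at no more than 0.499 FPKM and was a DEG only where 3DF_50 was compared with a coated dish, at 0.194, 0.0921 and 0.174 FPKM against 0.484, 0.440 and 0.437 in 2DC (log2 fold change -1.56, SE 0.35, edgeR adjusted p = 0.00784).

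Of the 13 heparan sulfate sulfotransferases 8 were tested in 3DF vs. 2DC, and 1 rose and 2 fell (6.98% and 8.38% of all genes). NDST1, which starts the modification of the chain by N-sulfation, was at 26.3, 28.1 and 27.7 FPKM in 2DC, 18.2, 21.6 and 20.3 in 2DF and 17.6, 21.8 and 20.9 in 3DF. The fibrillar libraries were all below the 2DC ones, and the fall passed in 2DF vs. 2DC (log2 fold change -0.44, SE 0.09, edgeR adjusted p = 0.011), not without 2DC replicate 2 (adjusted p = 0.0739), and in 3DF vs. 2DC (log2 fold change -0.45, SE 0.12, edgeR adjusted p = 0.0382), with the call kept in 1 of 6 fits that left out 1 library, the one without 3DF replicate 1 (adjusted p from 0.0157 to 0.164 over these fits). In 3DF_50 vs. 2DC NDST1 was lower past the adjusted p in 6 of 6 such fits, but not with library size only. NDST2, of the same function, ranged from 10.2 to 15.8 FPKM and was not called in the 3 comparisons.

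The HS3ST family, which adds the rarest sulfate group of heparan sulfate, split. HS3ST5 was at 8.52, 8.46 and 8.36 FPKM in 2DC, 4.46, 3.75 and 4.43 in 2DF and 6.85, 5.09 and 4.75 in 3DF, lower in all fibrillar libraries than in 2DC. The fall in 2DF vs. 2DC was just under the fold limit (log2 fold change -0.997, SE 0.11, edgeR adjusted p = 0.000777), and that in 3DF vs. 2DC was smaller (log2 fold change -0.61, SE 0.15, edgeR adjusted p = 0.0303), with the call kept in 1 of 6 fits that left out 1 library, the one without 3DF replicate 1 (adjusted p from 0.00143 to 0.112 over these fits). HS3ST4 (chromosome 6, 16164545 to 16586631, plus strand) was low, at 26, 24 and 10 counts in 2DC, 24, 65 and 28 in 2DF, 70, 98 and 58 in 3DF, with 80, 37 and 133 in 3DF_50. In FPKM the 3DF libraries were at 1.89, 2.93 and 1.94, all above the 2DC libraries at 0.598, 0.737 and 0.306. HS3ST4 was the member with the largest rise in 3DF vs. 2DC (log2 fold change 2.02, SE 0.37, edgeR adjusted p = 0.00797, a DEG in 6 of 6 fits without 1 library). In 2DF vs. 2DC it did not pass (log2 fold change 1.45, SE 0.48, edgeR adjusted p = 0.0784). HS3ST6 reached higher levels than either, at 27.3, 23.8 and 22.5 FPKM in 2DC, 28.1, 47.6 and 22.6 in 2DF, 15.9, 23.2 and 22.0 in 3DF, with 17.3, 15.8 and 14.03 in 3DF_50. The value of 2DF replicate 2 lay far above the rest. It was a DEG in 3DF_50 vs. 2DF (log2 fold change -1.04, SE 0.22, edgeR adjusted p = 0.01), but without 2DF replicate 2 the log2 fold change was -0.68 and without 3DF_50 replicate 3 it was -0.96. In 3DF_50 vs. 2DC HS3ST6 was lower past the adjusted p in 6 of 6 fits without 1 library and under each of 10 other settings. In 3DF_50 vs. 2DC_L it was so in 6 of 6 fits and 7 of 10 settings. HS6ST1 is not among the members because the table carries it as LOC100340145 (RefSeq pairing, also looked up after its values were seen), which ranged from 11.9 to 19.1 FPKM.

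SULF1 (chromosome 3, 85453737 to 85615815, plus strand), a secreted sulfatase that removes 6-O-sulfate from heparan sulfate and so changes growth factor binding, fell in 3DF and in 2DF against 2DC. It was at 19.9, 25.1 and 29.1 FPKM in 2DC, 24.5, 22.1 and 29.3 in 2DC_L, 13.2, 14.5 and 14.4 in 2DF, 10.3, 9.58 and 10.5 in 3DF, with 9.02, 6.68 and 8.62 in 3DF_50. No library of a lower group reached a library of a higher one, from the coated dishes through 2DF to 3DF and 3DF_50. SULF1 was a DEG in 3DF vs. 2DC (log2 fold change -1.30, SE 0.15, edgeR adjusted p = 0.00101, in 6 of 6 fits without 1 library and under each of the 10 other settings tried) and fell in 2DF vs. 2DC (log2 fold change -0.80, SE 0.13, edgeR adjusted p = 0.00492, 6 of 6 fits). In 3DF vs. 2DF it passed the adjusted p (log2 fold change -0.47, SE 0.12, edgeR adjusted p = 0.0482), with the call kept in 1 of 6 fits that left out 1 library, the one without 3DF replicate 1 (adjusted p from 0.0213 to 0.16 over these fits) and in 4 of the 10 other settings.

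SULF2, the related sulfatase, behaved differently. It was at 7.60, 9.14 and 14.83 FPKM in 2DC, 13.8, 13.9 and 9.62 in 2DF, 5.16, 8.46 and 7.29 in 3DF, with 9.52, 15.5 and 12.5 in 3DF_50. The 3DF libraries were below all 2DF and 3DF_50 libraries but overlapped 2DC, whose own libraries spread widely. SULF2 fell in 3DF vs. 2DF (log2 fold change -0.83, SE 0.21, edgeR adjusted p = 0.0458), with the call kept in 2 of 6 fits that left out 1 library, those without 2DF replicate 3 or 3DF replicate 2 (adjusted p from 0.0268 to 0.175 over these fits), and was not called in 3DF vs. 2DC (log2 fold change -0.60, SE 0.27, edgeR adjusted p = 0.183) or 2DF vs. 2DC (log2 fold change 0.25, SE 0.24, edgeR adjusted p = 0.518).

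**Figure D5:**
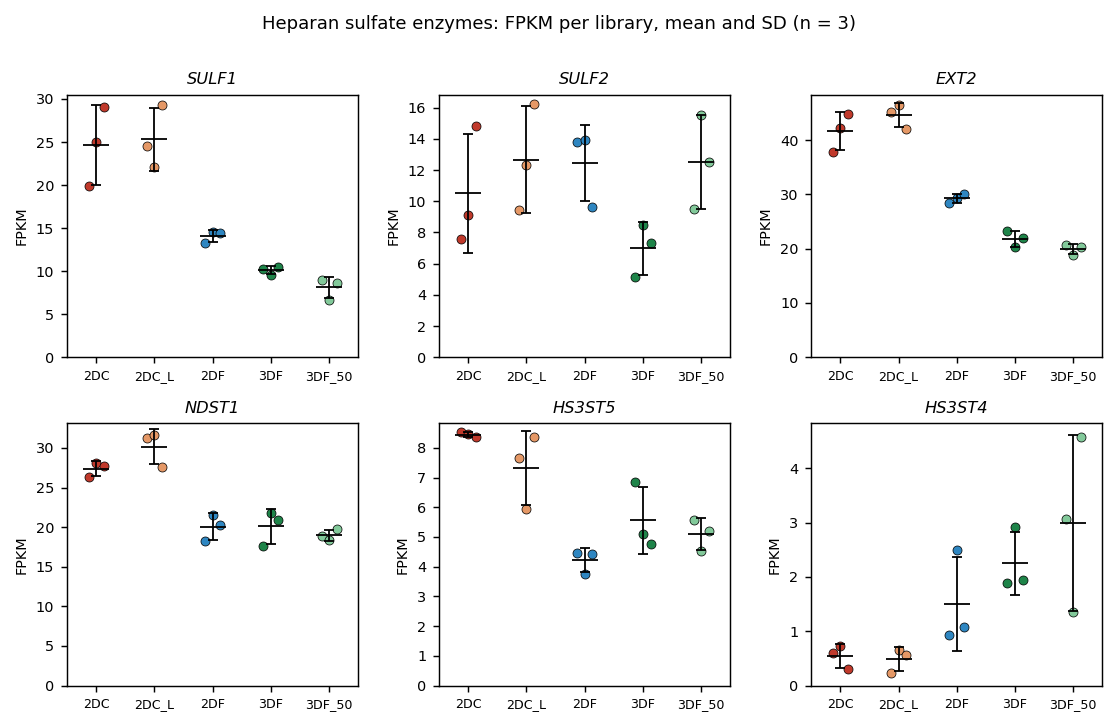
FPKM of 6 heparan sulfate enzyme genes in the 5 conditions, with points for libraries and bars for mean and SD (n = 3), every vertical axis starting at 0. SULF1 and EXT2 step down from 2DC (means of 24.7 and 41.7 FPKM) to 2DF (14.1 and 29.2) and 3DF (10.1 and 21.8), and HS3ST4 is low throughout with a wide spread in 3DF_50.

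The hyaluronan synthases were expressed at very low levels. HAS1 had at most 8 counts in any library. HAS2 had 5, 14 and 10 counts in 2DC, 2, 9 and 9 in 2DC_L, 4, 1 and 3 in 2DF, 0, 0 and 0 in 3DF, with 5, 0 and 1 in 3DF_50. With 3 counts per library as the limit that a count of 0 allows, the 2DC mean of 0.139 FPKM was 3.14 times the 3DF limit of 0.0443 FPKM. That limit covers counting error in 3DF only, and the error of the low 2DC counts is left out, so the ratio is not a lower bound. HAS2 did not pass the filter in 3DF vs. 2DC. HAS3 stayed between 0.0648 and 0.433 FPKM and was not called in any of the 10 comparisons.

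Of the 14 members that act on the HNK-1 epitope, N-glycans or glycolipids, 8 were tested in 3DF vs. 2DC, and 1 rose and 2 fell (6.98% and 8.38% of all genes). B4GALT2 (chromosome 13, 122699889 to 122707372, minus strand), a galactosyltransferase of N-glycans, was at 46.5, 51.9 and 41.0 FPKM in 2DC, 50.0, 46.2 and 57.8 in 2DC_L, 23.8, 32.3 and 26.8 in 2DF, 22.4, 28.7 and 27.4 in 3DF, with 20.7, 17.0 and 20.2 in 3DF_50. All fibrillar libraries were below all coated ones, the reverse of its relative B4GALT1. It fell in 3DF vs. 2DC (log2 fold change -0.84, SE 0.14, edgeR adjusted p = 0.00634) and 2DF vs. 2DC (log2 fold change -0.74, SE 0.13, edgeR adjusted p = 0.00625), each in 6 of 6 fits without 1 library, and was a DEG in 3DF_50 vs. 2DC (log2 fold change -1.27, SE 0.11, edgeR adjusted p = 5.67e-05).

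B3GNT8, which extends branched N-glycans, was at 9.28, 11.3 and 12.1 FPKM in 2DC, 5.52, 8.77 and 5.20 in 2DF and 3.69, 6.21 and 6.79 in 3DF, again without overlap of 2DC with either. It passed the adjusted p in 3DF vs. 2DC (log2 fold change -0.98, SE 0.24, edgeR adjusted p = 0.0258), with the call lost without 2DC replicate 2 or 2DC replicate 3 (adjusted p from 0.0124 to 0.0943 over these fits), and in 2DF vs. 2DC (log2 fold change -0.74, SE 0.21, edgeR adjusted p = 0.0458), with the call kept in 2 of 6 fits that left out 1 library, those without 2DC replicate 1 or 2DF replicate 2 (adjusted p from 0.0123 to 0.153 over these fits). B3GNT5 (chromosome 14, 82440147 to 82462495, minus strand), which starts lacto-series glycolipids, was at 1.11, 1.12 and 1.17 FPKM in 2DC, 1.17, 1.31 and 0.834 in 2DF, 3.07, 1.82 and 2.24 in 3DF, with 1.89, 2.49 and 1.86 in 3DF_50. The embedded libraries were all above the flat ones. It was a DEG in 3DF vs. 2DC (log2 fold change 1.06, SE 0.20, edgeR adjusted p = 0.00874), with a log2 fold change of 0.84 without 3DF replicate 1, and in 3DF vs. 2DF (log2 fold change 1.11, SE 0.24, edgeR adjusted p = 0.0244), with the call kept in 1 of 6 fits that left out 1 library, the one without 3DF replicate 2 (adjusted p from 0.014 to 0.0916 over these fits). B3GNT5 overlaps MCF2L2 on the other strand, which had a mean of 43.8 counts beside its own 239.7. B3GNT9, CHST10, B4GALT3 and B4GALT5, all at 8.98 FPKM or more in every library, were not called in the 3 comparisons. B3GNT9 and CHST10 passed the adjusted p, lower, in 3DF_50 vs. 2DC, but not with library size only. The CHST10 call was kept in 1 of 6 fits without 1 library and lost with the library-name code as a block.

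The lower cell number in the 3D matrix gave no member call in edgeR without a block. Of 49 members 0 were DEGs in 3DF vs. 3DF_50 and 0 passed the adjusted p in edgeR (0.452% and 0.617% of all genes, of which 0.316% and 0.452% higher and 0.135% and 0.166% lower), while 12 had an unadjusted p under 0.05, 9 higher and 3 lower in 3DF. With library size only the latter were 6, 1 higher and 5 lower. DESeq2 called 0 DEGs and 2 members without the fold limit, and limma called 0. With the replicate number as a block edgeR also gave 0 DEGs and 2 members without the fold limit. No overlap was seen for 12 members that were higher in 3DF and 2 that were lower, against 16.8% and 12.6% of all genes. Among the members with an unadjusted p under 0.05 were DSEL (log2 fold change 0.95, SE 0.19) and SULF2 (-0.87, SE 0.22), for which edgeR's adjusted p was 0.0652 and 0.0978.

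The incubation with digestion medium also gave no call. In 2DC vs. 2DC_L 0 of 49 members were DEGs or passed the adjusted p (0.265% and 0.367% of all genes, of which 0.257% and 0.353% higher and 0.00735% and 0.0147% lower), and 3 had an unadjusted p under 0.05: CHST12 (log2 fold change -0.24), B3GNT8 (-0.34) and B3GNT5 (0.30). DESeq2 and limma called 0. No overlap was seen for 2 members higher and 5 lower in 2DC, against 7.39% and 5.45% of all genes.

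The remaining pairs set the sparser 3D cultures or the directly lysed dishes against the other conditions. In 3DF_50 vs. 2DC 7 of 48 members were DEGs, 2 higher (HS3ST4 and CHST7) and 5 lower (CHST2, EXTL1, EXT2, SULF1 and B4GALT2), against 11.6% of all genes (4.28% higher and 7.33% lower), and 28 passed without the fold limit, 12 higher and 16 lower (38.0% of all genes, 17.8% and 20.3%). SULF1 had a log2 fold change of -1.60 (SE 0.16), CHST7 of 1.12 (SE 0.15), CHST2 of -1.65 (SE 0.36) and HS3ST4 of 2.44 (SE 0.48). Scaled by library size alone, the median of all genes in this pair moved to 0.37 and the split became 22 higher and 10 lower. Of all 13402 genes, 6380 were then past the adjusted p higher and 1374 lower. In 3DF vs. 2DC_L 8 of 48 were DEGs (10.2% of all genes, 4.24% higher and 5.98% lower): HS3ST4, B3GNT5, B4GALT1 and CHST7 higher, and CHST2, SULF1, B3GNT8 and EXT2 lower. In that pair B4GALT1 had a log2 fold change of 1.09 (SE 0.12), and EXT2, at -1.03, was -0.98 without 3DF replicate 2. CHST7 lost the call there without 2DC_L replicate 1, 2DC_L replicate 2 or 3DF replicate 2 (adjusted p up to 0.0595).

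In 3DF_50 vs. 2DF 3 of 48 members were DEGs, all lower (CHST2, DSEL and HS3ST6), against 4.45% of all genes (1.44% higher and 3.01% lower), and 14 passed without the fold limit, 2 higher and 12 lower (13.4%, as 4.78% and 8.58%). With library size alone the median of all genes was 0.25 and the split 10 higher and 5 lower, beside 2865 and 720 of all 13201 genes. In 2DF vs. 2DC_L 3 of 48 were DEGs, B3GNT7 and HS3ST4 higher and B3GNT8 lower (7.39% of all genes, 2.93% higher and 4.46% lower), and in 3DF_50 vs. 2DC_L 9 of 48, 3 higher (HS3ST4, B3GNT5 and CHST7) and 6 lower (CHST2, SULF1, B4GALT2, EXTL1, B3GNT8 and EXT2), against 13.5% of all genes (5.05% and 8.47%). HS3ST4 in 2DF vs. 2DC_L (log2 fold change 1.65, SE 0.50, edgeR adjusted p = 0.0408) had the call kept in 2 of 6 fits that left out 1 library, those without 2DF replicate 1 or 2DF replicate 3 (adjusted p from 0.0425 to 0.155 over these fits), and B3GNT8 there lost the call without 2DF replicate 1 or 3. In 3DF_50 vs. 2DC_L CHST7 (log2 fold change 1.01, SE 0.20, edgeR adjusted p = 0.00307) had the call kept in 2 of 6 fits that left out 1 library, those without 2DC_L replicate 3 or 3DF_50 replicate 1 (log2 fold change from 0.81 to 1.24 over these fits), and EXTL1 (log2 fold change -1.36, SE 0.39, edgeR adjusted p = 0.0171) had the call lost without 2DC_L replicate 2, 2DC_L replicate 3 or 3DF_50 replicate 2 (adjusted p from 0.0268 to 0.0597 over these fits). Over the 10 comparisons, which share libraries, 13 of the 50 members that passed the filter in any of them were a DEG at least in 1. The share of all genes that were a DEG at least in 1 was not counted, so this number has no background.

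Other genes of the pathway were taken from a list of 86, of which 78 are in the table. Of the 21 donor genes tested, which make and carry activated sugars and sulfate, 2 were DEGs that rose in 3DF vs. 2DC (3.24% of all genes), 0 in 2DF vs. 2DC (2.04%) and 1 in 3DF vs. 2DF (2.09%). Among those lower past the adjusted p in 3DF vs. 2DC (8.38% of all genes) were PGM3, SLC35A2 and UXS1. In 2DF vs. 2DC 0 were higher and 3 lower past it (6.73% and 7.63%), namely IMPAD1, PAPSS2 and UXS1. The median log2 fold changes of the donor genes were -0.08 in 3DF vs. 2DC, -0.09 in 2DF vs. 2DC and -0.01 in 3DF vs. 2DF. UGDH, which makes UDP-glucuronic acid, was at 72.4, 77.1 and 133 FPKM in 2DC, 122.5, 108 and 110.4 in 2DF, 193, 163 and 217 in 3DF, with 289, 317 and 295 in 3DF_50. All embedded libraries were above all flat ones, and UGDH was a DEG in 3DF vs. 2DC (log2 fold change 1.01, SE 0.24, edgeR adjusted p = 0.0235). GFPT2, an entry enzyme of the hexosamine pathway, was at 2.20, 2.36 and 2.88 FPKM in 2DC, 5.50, 4.10 and 1.94 in 2DF and 10.1, 13.1 and 12.1 in 3DF. No 3DF library overlapped 2DC or 2DF, and GFPT2 rose in both comparisons (3DF vs. 2DC, log2 fold change 2.24, SE 0.17, edgeR adjusted p = 0.000161, and 3DF vs. 2DF, log2 fold change 1.62, SE 0.31, edgeR adjusted p = 0.0129).

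Among modifying enzymes outside the members, 4 were tested and 0 were DEGs in the 3 comparisons. Of all genes, 7.56% were DEGs in 3DF vs. 2DC, 4.96% in 2DF vs. 2DC and 3.78% in 3DF vs. 2DF. GLCE, the epimerase of heparan sulfate, fell in 3DF vs. 2DC (log2 fold change -0.54, SE 0.10, edgeR adjusted p = 0.00874) and 2DF vs. 2DC (log2 fold change -0.70, SE 0.08, edgeR adjusted p = 0.000835), as did UST, a uronyl sulfotransferase of chondroitin and dermatan sulfate (log2 fold change -0.55, SE 0.15, edgeR adjusted p = 0.0397 and log2 fold change -0.63, SE 0.12, edgeR adjusted p = 0.00854). Of 16 breakdown genes tested in 3DF vs. 2DC, 4 were higher and 4 lower past the adjusted p (6.98% and 8.38% of all genes), and 3 higher and 0 lower were DEGs (3.24% and 4.32%): TMEM2, a hyaluronidase of the cell surface (log2 fold change 1.21, SE 0.12, edgeR adjusted p = 0.000569), ARSG (log2 fold change 1.08, SE 0.16, edgeR adjusted p = 0.00327) and NAGLU (log2 fold change 1.03, SE 0.14, edgeR adjusted p = 0.00194), lysosomal enzymes of heparan sulfate breakdown. In 2DF vs. 2DC TMEM2 and ARSG were DEGs higher, and CEMIP, which takes part in hyaluronan breakdown, was one lower (log2 fold change -1.40, SE 0.31, edgeR adjusted p = 0.019), against 2.04% and 2.93% of all genes.

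Of 30 tested core proteins that carry the chains, 2 were higher and 7 lower as DEGs in 3DF vs. 2DC, against 3.24% and 4.32% of all genes. Those that rose were SDC4 (log2 fold change 1.05) and SPOCK3 (1.29). Those that fell were ASPN (-3.59), GPC6 (-2.20), SDC1 (-1.92), BGN (-1.501), VCAN (-1.45), HSPG2 (-1.44) and FMOD (-1.43). Most of these carry heparan or chondroitin sulfate, or in FMOD keratan sulfate, while ASPN belongs to the same leucine-rich family. In 2DF vs. 2DC 2 rose (ACAN, 2.28, and SDC4, 1.32) and 4 fell (GPC6, -2.41, CSPG4, -1.22, HSPG2, -1.07, and SDC1, -1.01), against 2.04% and 2.93% of all genes. In 3DF vs. 2DF 1 rose (TGFBR3, 1.22) and 5 fell (ASPN, -3.49, FMOD, -1.90, ACAN, -1.88, BGN, -1.84, and SPOCK2, -1.19), against 2.09% and 1.69% of all genes. In 3DF vs. 3DF_50 and 2DC vs. 2DC_L 0 genes of the 4 pathway lists were called by edgeR, against 0.617% and 0.367% of all genes past the adjusted p.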

How the data were processed

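Bulk RNA-seq was read from 15 libraries, 3 per condition, grouped by the titles in the labels. Per the labels and the methods of the study, the authors' provider aligned reads to oryCun2 (HISAT2 2.0.5) and counted them per gene (featureCounts 1.5.0-p3), and the deposited table holds whole-number counts that are not normalized. The authors also deposited FPKM values, the counts divided by gene length and a size per library (0.921 to 1.24 times its total), in a second table. Columns of 1 condition are separate experiments, and 0 columns of per-sample values were left unused.

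Members were matched by symbol, and the members, role groups, pathway lists and marker lists were chosen with earlier results of these data known. Named genes are members that were a DEG in any comparison, members past the adjusted p in 3DF vs. 2DC, 2DF vs. 2DC or 3DF vs. 2DF, the most abundant member of each role and a fixed list of main enzymes. Other members are named to account for each role. The counts of all genes were fitted pair by pair with edgeR 4.0.16 in R 4.3.3 (TMM scaling, filterByExpr with a minimum count of 10, quasi-likelihood F test, two-sided, no block), with Benjamini-Hochberg adjustment over all genes tested, and over 5 conditions with an F test on 4 coefficients. For a DEG the adjusted p was 0.05 or less and the log2 fold change 1 or more in size. The SE is the log2 fold change divided by the square root of F. The script was tested on simulated data. Alternatives were DESeq2 1.42.0 (the tool of the study), limma 3.58.1 on log2-transformed FPKM with a pseudocount of 1 or 0.1, other scalings and filters, a replicate block, a block on the library-name code and each library left out. Total counts of 14626982 to 31804255 per library (median 18770056) leave members under about 10 counts untested. Gene names of LOC identifiers came from RefSeq (mOryCun1.1), and no coordinates of that build were used. The result of 1 gene of the donor list is not reported here.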

Additional observations from a re-analysis of the deposited data

How the results depend on the processing

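Member DEGs were recounted under each alternative. In 3DF vs. 2DC the 5 DEGs became 18 without the fold limit, 8 with library size only, 9 with the library-name code as a block over all 5 conditions and 3 with limma on log2(FPKM + 1). In 2DF vs. 2DC the 1 DEG became 15 without the fold limit, 3 with DESeq2, 2 without the filter and 0 with the code block, which also lost every call past the adjusted p there. In 3DF vs. 2DF the 2 became 5 without the fold limit, 0 with the code block, 0 with limma on log2(FPKM + 1) and 1 with limma on log2(FPKM + 0.1). The code block lost every member call past the adjusted p in 3DF vs. 2DF too. In 3DF_50 vs. 2DC the 7 became 28 without the fold limit, 13 with library size only and 4 with limma on log2(FPKM + 1), and in 3DF_50 vs. 2DF the 3 became 14 without the fold limit, 0 with the code block and 0 with limma on log2(FPKM + 1). In 3DF vs. 2DC_L the 8 became 19 without the fold limit and 5 with limma on log2(FPKM + 1), in 2DF vs. 2DC_L the 3 became 18 without the fold limit and 0 with the code block, and in 3DF_50 vs. 2DC_L the 9 became 29 without the fold limit. Without that limit these were 39.6%, 37.5% and 60.4% of members, against 23.3%, 22.6% and 42.9% of all genes. Over all genes, DEGs moved with the code block from 658 to 16 in 2DF vs. 2DC and from 499 to 4 in 3DF vs. 2DF. They moved from 587 to 236 in 3DF_50 vs. 2DF, 972 to 87 in 2DF vs. 2DC_L and 1020 to 1159 in 3DF vs. 2DC. With limma on log2(FPKM + 1), DEGs over all genes were 534 in 3DF vs. 2DC and 268 in 3DF vs. 2DF. With library size only they were 1124 in 3DF vs. 2DC and 1839 in 3DF_50 vs. 2DC. The code block left few libraries that share a code across conditions, and the cause of its lost calls was not tested.

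Fits without 1 of the libraries gave 4 to 10 DEGs in 3DF vs. 2DC, 1 to 2 in 2DF vs. 2DC, 1 to 3 in 3DF vs. 2DF, 7 to 10 in 3DF_50 vs. 2DC, 2 to 3 in 3DF_50 vs. 2DF, 8 to 10 in 3DF vs. 2DC_L, 2 to 3 in 2DF vs. 2DC_L, 7 to 10 in 3DF_50 vs. 2DC_L and 0 in 3DF vs. 3DF_50 as in 2DC vs. 2DC_L. The 32 members of the 5-condition test became 28 to 33. With the library-name code as a block they became 22, while of all 14036 genes those past the adjusted p went from 5862 to 2793. Of 607 alternative values of the 38 DEG calls, 530 kept the call, 77 lost it and 0 changed direction. Of 1760 values of the 110 calls past the adjusted p only, 1485 kept it and 271 lost it. These calls include those of LOC100351319, which is not a member, in 3DF vs. 2DC and 2DF vs. 2DC. The 4 that changed direction were, in 3DF_50 vs. 2DC with library size only, CHPF (0.0610), CHPF2 (0.0039) and CHST10 (0.0377), and CHST7 in 2DF vs. 2DC with the code block (-0.0510).

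The numbers were taken as pairing only where all 3 correlations of same-numbered libraries were over 0.1, and no comparison met this. They came nearest in 2DC vs. 2DC_L (0.322, 0.0644 and 0.105), where replicates 1 and 2 also share the codes E2 and E3, and in 3DF_50 vs. 2DC_L (0.140, 0.0749 and 0.259). With the replicate number as a block the DEG counts were 6 in 3DF vs. 2DC, 1 in 2DF vs. 2DC, 2 in 3DF vs. 2DF, 0 in 3DF vs. 3DF_50, 0 in 2DC vs. 2DC_L, 8 in 3DF_50 vs. 2DC, 2 in 3DF_50 vs. 2DF, 8 in 3DF vs. 2DC_L, 3 in 2DF vs. 2DC_L and 10 in 3DF_50 vs. 2DC_L, with 32 in the 5-condition test. Each 2DC library and each 3DF_50 library correlated best with the 2DC_L library of its own number. The best match of each 2DC_L library was not looked up. Without the fold limit the block gave 2 members in 3DF vs. 3DF_50, where edgeR without it gave 0.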
